A study of Mus musculus with 16 samples.

Results

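Germ cells of the female gonad at E13.5, counted in embryonic days, were compared with germ cells of the E11.5 gonad in mouse embryos. The comparison used 4 of the 16 libraries of the series, 2 labelled E13.5 female and 2 labelled E11.5, which were chosen by their labels and by no measured value. All 4 came from wild-type females mated with Dppa3-EGFP mice, with strain ICR:C57BL/6=1:1 and genotype Dppa3(EGFP/+), a green fluorescent reporter at a locus active in germ cells. Gonads were dissociated with trypsin and cells were sorted by fluorescence. The collection protocol names EYFP and the surface antigen SSEA-1 for sorting, and does not say which gate was used for these embryos. The sex of the E11.5 embryos is not given, so the E11.5 libraries may hold cells of either sex. A further 2 libraries at E10.5 and 2 from E13.5 males, of the same genotype, shared the model fit. The male libraries served to test whether a change from E11.5 differed between the sexes. Nothing in the labels tells whether the 2 libraries of a group are separate embryos, litters or repeats of 1 RNA pool, so the spread behind each p-value may be technical.

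Primordial germ cells, the precursors of eggs and sperm, divide by mitosis while they settle in the gonad, and at that time they express several factors of pluripotent stem cells. In the embryonic ovary they then leave the mitotic cycle and enter meiotic prophase, in which sister chromatids are held by meiotic cohesin, chromosomes are broken and repaired against their homologues, and homologues are joined by the synaptonemal complex. STRA8, induced by retinoic acid and BMP signals, is known as the switch for this step, while germ cells of the embryonic testis arrest without entering meiosis.

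Expression was measured by 3′ RNA sequencing of 1 ng of RNA per library, amplified with 11 PCR cycles. The deposited values are RPM, gene-assigned reads scaled to a common library total and not divided by gene length, so levels of different genes are not compared. Each wild-type library held between 1484856 and 4783298 reads, as read from the smallest step between its values, so that 3 reads, taken as the limit of detection, equal 0.627 to 2.02 RPM. Replicates correlated across genes at 0.969 (E11.5) and 0.984 (E13.5 female). This limit reflects counting alone, and reads copied by PCR are not separate molecules. In bulk RNA, fewer cells expressing a gene and less RNA per cell cannot be told apart.

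The labels were checked against marker genes. Stra8 was listed at 0 in both E11.5 libraries and at 412 and 403 RPM in the female libraries. General germ cell genes were present in all 4 libraries. Ddx4, a germ cell RNA helicase, was at 203 and 130 RPM at E11.5 and at 613 and 675 RPM in E13.5 females, and the receptor gene Kit was at 197 and 220 RPM and at 218 and 198 RPM. The 13 stromal and mesenchymal markers other than Vim summed to 6.06 and 7.12 RPM at E11.5 and to 4.81 and 5.76 RPM in females. With Vim, which made up most of the level, the sums were 106 and 102 RPM and then 71.9 and 96.8 RPM. The 8 macrophage markers summed to 4.04 and 6.83 RPM and to 1.88 and 3.56 RPM, with Ptprc and C1qa at 0 throughout. Foxl2, the defining pre-granulosa gene, was at 0 in 3 of the 4 libraries and at 0.548 RPM in female replicate 2. Some marker sums did move between the groups. The 10 pre-granulosa markers summed to 5.39 and 7.69 RPM at E11.5 and to 19.9 and 27.1 RPM in females. The sum of 9 erythroid markers was 16.8 and 6.26 RPM and then 39.1 and 43.9 RPM, and 4 of the 6 tested were called higher. Endothelial markers with Pecam1 summed to 145 and 136 RPM at E11.5 and to 121 and 130 RPM in females. Without Pecam1 they went from 30.3 and 34.2 RPM to 6.27 and 9.05 RPM. Mesonephric markers went from 41.1 and 41.9 RPM to 13.8 and 10.1 RPM, and Sertoli markers from 50.5 and 70.0 RPM to 28.0 and 23.8 RPM. The part of these cells in the results below was not tested.

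The female germ cells differed from the E11.5 germ cells in a large part of their transcriptome, with meiotic genes and Lefty genes at the extremes of the named genes. Of 10749 genes tested, 5502 were called, which is 51.2% of genes tested (limma on log2(RPM + 1), Benjamini-Hochberg adjusted p under 0.05). Of these, 3354 were higher in the female libraries (31.2% of genes tested) and 2148 were lower (20.0%), and 1708 and 884 changed at least 2-fold. These shares are the background against which each group of genes below is read. The median difference over all genes was 0.13 on the log2 scale, and it was 0.02 and -0.02 after median-ratio and quantile scaling, so small differences are read relative to that shift. With those scalings 51.8% and 49.3% of the called genes were higher, against 61.0% as deposited. Direct comparison of female with male E13.5 libraries called 4038 genes (37.6%), 2280 higher in females (21.2%) and 1758 lower (16.4%). Because the E11.5 libraries cancel in it, that comparison is also the test of whether the change from E11.5 differed between the sexes. The male libraries differed from the same E11.5 libraries in 38.2% of genes, 22.3% higher and 15.9% lower. In 43.7% of genes both female libraries lay above both E11.5 libraries, and in 31.2% both lay below.

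**Figure D1:**
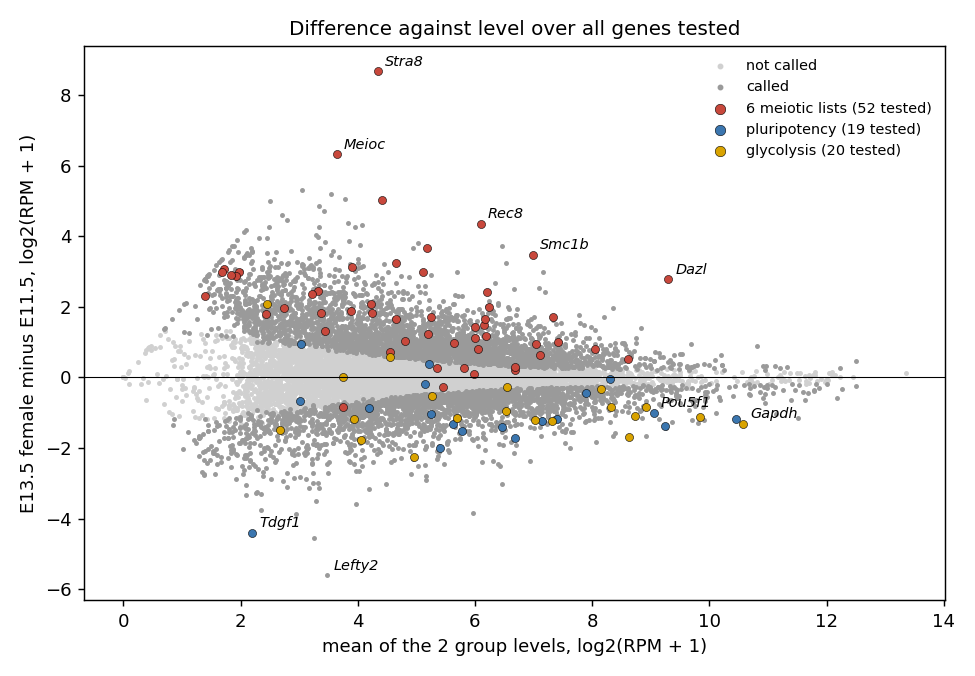
Difference between E13.5 female and E11.5 libraries (vertical axis, log2 RPM + 1) against the mean level of both groups (horizontal axis, same scale) for 10749 genes tested. Coloured points are 52 tested members of 6 meiotic lists (red), 19 pluripotency genes (blue) and 20 glycolysis genes (yellow), and Stra8 and Meioc lie above all other list members while Lefty2 lies lowest of the genes named in the plot.

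Meiotic genes were read in 6 lists by role, with 68 genes in all. Of these, 66 were in the table and 52 passed the filter on low values. In the female libraries 45 of the 52 were called higher, 1 lower and 6 neither way, and their median log2 difference was 1.75. The filter counted all wild-type libraries, so a gene at or under the limit of detection at E11.5 passed only through other groups. Such members, Stra8, Meioc, Spdya and Rspo1 among them, could hardly be called lower. Their part in the counts and medians, here and in the single lists below, was not tested. Of the 45, 30 were also higher in female than in male libraries at E13.5, and 22 of the 52 were not called between the sexes. Over all genes tested, 21.2% were higher in females than in males. The 45 were called with the same female libraries, so part of this overlap follows from the choice and it adds no support.

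The entry regulator Stra8 had the largest log2 difference of all named genes. Stra8 (chromosome 6, 34920163 to 34939344, GRCm38) was listed at 0 and 0 RPM at E11.5 and at 412 and 403 RPM in females. Measured against the floor of 3 reads at E11.5, this is at least 283-fold higher (log2 difference 8.67 ± 0.43 SE, adjusted p = 2.68e-15). The male libraries held 0.668 and 1.76 RPM, and the female level was higher by 7.57 on the log2 scale (adjusted p = 3.47e-14). Meioc, listed under its older name Gm1564 and needed with YTHDC2 to keep germ cells in the meiotic programme, was at 0 and 0.854 RPM at E11.5 and at 103 and 113 RPM in females. The difference on the log2(RPM + 1) scale was 6.33 ± 0.45 SE (adjusted p = 5e-12), and the male values were 3.01 and 3.17 RPM. For both genes the female libraries stood far apart from all other wild-type libraries. Ythdc2 itself, an RNA helicase, went from 9.43 and 8.54 RPM to 36.8 and 32.6 RPM (1.84, adjusted p = 1.87e-05). Zglp1, a GATA-type zinc finger factor of the oogenic programme, went from 5.39 and 9.11 RPM to 82.0 and 68.5 RPM (3.24, adjusted p = 1.86e-09).

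Entry regulators differed in how far they separated the sexes. Dazl, an RNA-binding protein that makes germ cells competent for sexual differentiation, rose from 259 and 221 RPM to 1640 and 1655 RPM in females, a 6.87-fold rise. In males it stood at 1391 and 1320 RPM, so the female excess was 0.28 on the log2 scale (adjusted p = 0.0242). Taf4b, a gonadal TFIID subunit, rose from 39.7 and 45.6 RPM to 93.7 and 92.6 RPM, with 81.2 and 80.6 RPM in males, and the sexes were not called different (adjusted p = 0.319). Rspo1, a secreted Wnt activator made mainly by somatic cells of the ovary, passed the test at low levels (0 and 0.285 RPM, then 2.93 and 7.13 RPM), and the males held 6.68 and 12.3 RPM. It is also 1 of the pre-granulosa markers whose sum was higher in females. All 10 tested entry regulators were called higher than at E11.5, and 8 of the 10 were higher in females than in males. For Stra8, Meioc and Rspo1, at or under the limit of detection at E11.5, a lower call was hardly possible.

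Cohesin genes separated by their role. Rec8, the meiotic kleisin that holds sister chromatids through prophase, was at 13.47 and 14.8 RPM at E11.5 and at 318 and 299 RPM in females. That is a 21.8-fold rise (log2 difference 4.35 ± 0.24 SE, adjusted p = 3.41e-14), and the males were at 11.4 and 18.3 RPM, overlapping the E11.5 values. Smc1b, the meiotic partner of SMC3, rose 11.4-fold from 38.4 and 35.6 RPM to 420 and 420 RPM, with 140 and 121 RPM in males. Stag3, the meiotic STAG subunit, rose 3.28-fold from 84.2 and 92.2 RPM to 311 and 268 RPM, with 127 and 137 RPM in males. The fourth meiotic subunit gene, Rad21l, was listed at 0 in all 4 libraries.

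The cohesin subunits of the mitotic cycle changed by smaller amounts. Rad21, the mitotic kleisin, fell from 594 and 494 RPM to 425 and 430 RPM (-0.34, adjusted p = 0.00427). Smc1a, at 110 and 99.1 RPM and then 122 and 134 RPM, did not pass the test (adjusted p = 0.0664). Smc3, which serves both kinds of complex, rose from 242 and 202 RPM to 331 and 338 RPM. Of 16 mitotic cohesin subunits and regulators, 8 were higher and 3 lower, with a median of 0.38. The 3 tested meiotic subunits were all higher, with a median of 3.47.

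Genes of the synaptonemal complex and the chromosome axis rose together. Of 12 tested, 11 were called higher, with a median log2 difference of 2.17. Sycp3, which forms the lateral axes, was at 10.1 and 8.26 RPM at E11.5 and at 124 and 130 RPM in females, a 13.9-fold rise (3.66 ± 0.26 SE, adjusted p = 3.87e-12). Males stood between, at 40.4 and 35.9 RPM. Sycp1, which bridges the axes, rose from 2.02 and 3.42 RPM to 98.9 and 141 RPM, with 53.8 and 41.6 RPM in males. Tex12, a central element protein, rose from 10.8 and 11.96 RPM to 83.2 and 111 RPM. Hormad1, the axis protein that promotes breaks, rose from 31.7 and 30.2 RPM to 177 and 164 RPM (2.43, adjusted p = 9.92e-12). Trip13, the ATPase that removes HORMA proteins from the axis, was the tested member that did not pass (55.2 and 45.3 RPM, then 61.5 and 60.3 RPM). Sycp2 was at 19.4 and 20.0 RPM in females and 34.1 and 25.0 RPM in males, and did not differ between the sexes beyond the threshold (adjusted p = 0.355).

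**Figure D2:**
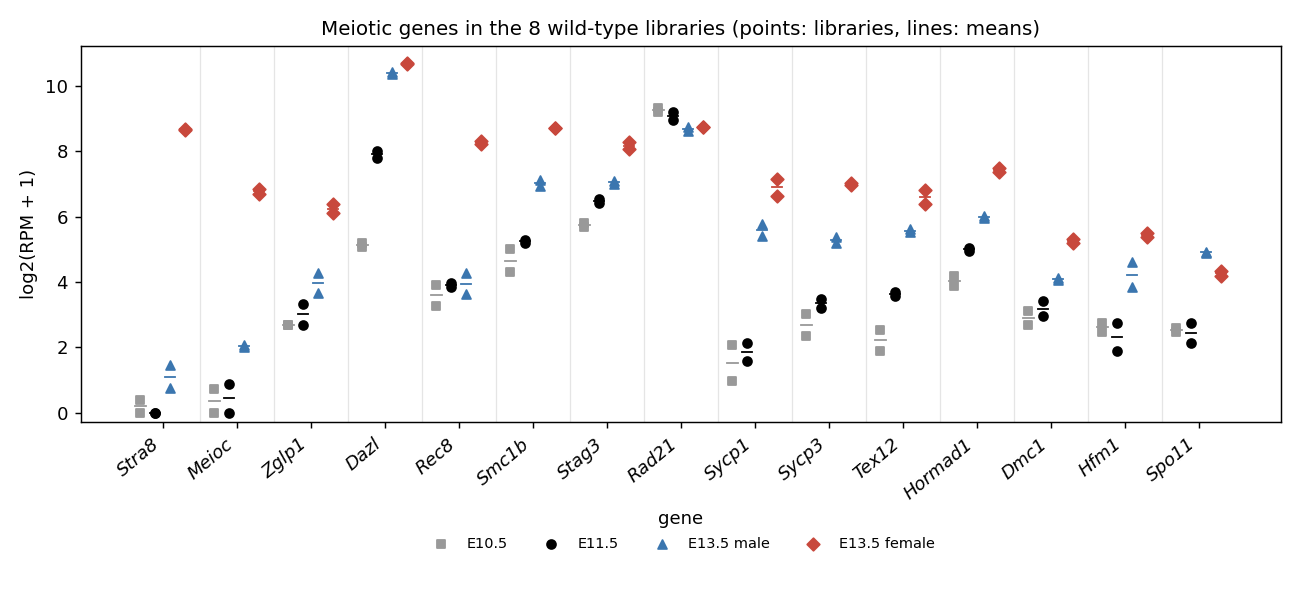
Levels of 15 meiosis-related genes, with the mitotic cohesin gene Rad21 for reference, as log2(RPM + 1) in each of the 8 wild-type libraries (points) with group means (lines). Female points stand above all other groups for Stra8, Meioc and Rec8, male points lie between E11.5 and female for Sycp1 and Sycp3, and Spo11 is highest in males.

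Of 7 genes in the table that form meiotic chromosome breaks, 3 passed the filter and were called higher. Spo11, the enzyme that cuts the chromosomes, went from 3.37 and 5.69 RPM to 19.2 and 17.3 RPM (1.83, adjusted p = 4.86e-05). Males held 29.1 and 28.9 RPM, and the sexes were not called different (-0.64, adjusted p = 0.134). Rec114, listed as 2410076I21Rik, which supports SPO11 activity, rose from 36.4 and 32.7 RPM to 62.3 and 74.8 RPM. Mei4, a partner of REC114, passed the test (1.31, adjusted p = 0.0113), but its E11.5 libraries held 10.1 and 2.56 RPM and its female libraries 10.9 and 19.5 RPM. Without E11.5 replicate 2 its difference was 0.49 (adjusted p = 0.341) and without E13.5 female replicate 2 it was 0.92 (adjusted p = 0.189). Prdm9, the methyltransferase that places breaks, reached 2.93 and 3.02 RPM in females against 0.673 and 0.285 RPM and was not tested, as it stayed under the filter.

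Genes of strand invasion and crossover were mostly higher. Dmc1, the meiosis-specific recombinase, rose from 6.73 and 9.68 RPM to 38.7 and 35.9 RPM (2.07, adjusted p = 2.71e-06). Hfm1, a helicase of crossover formation, rose from 2.69 and 5.69 RPM to 40.3 and 44.4 RPM. Brca2, which loads recombinases, rose from 40.4 and 56.1 RPM to 108 and 108 RPM. Rad51c, at 66.7 and 54.4 RPM and then 63.8 and 64.1 RPM, did not pass. Of 25 such genes, 19 were tested, 14 were higher and 1, the repair gene Xrcc3, was lower (-0.84, adjusted p = 0.0309). That lower call was lost without female replicate 1 and without E11.5 replicate 2. Among genes that tether telomeres in prophase, 4 of 5 tested were higher, including Spdya, an activator of CDK2 at telomeres (0.673 and 0 RPM, then 9.62 and 7.67 RPM) and Cdk2 itself (18.9 and 17.9 RPM, then 42.6 and 35.4 RPM).

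Since these genes rose together, the annotated promoter windows of the meiotic lists were searched for short motifs on both strands. The motifs were CACGTG, an E-box bound by many basic helix-loop-helix and MYC-type factors, TTCCCGC, a sequence of E2F type, and CNCCTCAG, a sequence that has been reported at promoters bound by STRA8. Each window held 250 bases before and 50 after 1 start annotated by RefSeq (GRCm38.p6), which need not be the start used in germ cells. Windows were found for 55 of the 66 genes, and for 36 of the 45 called higher. Of the 36, 11 held CACGTG (30.6%), 11 held CNCCTCAG (30.6%) and 13 held TTCCCGC (36.1%), and 14 held none of these. Among all 55, called or not, the shares were 23.6%, 25.5% and 32.7%. Over all 32851 windows of the table the shares were 7.15%, 7.94% and 4.6%. These last shares count single windows, whereas a list gene counted if any of its windows held the motif. A gene with several windows has more chances of a match, so the shares are not like for like. Base composition was not matched between these sets, and a match is a description of the letters, not a site of binding. Stra8 is shown because it changed most. The other windows are of genes with large rises that hold a motif, printed 5′ to 3′ on the gene's strand, with matches in capitals.
Stra8: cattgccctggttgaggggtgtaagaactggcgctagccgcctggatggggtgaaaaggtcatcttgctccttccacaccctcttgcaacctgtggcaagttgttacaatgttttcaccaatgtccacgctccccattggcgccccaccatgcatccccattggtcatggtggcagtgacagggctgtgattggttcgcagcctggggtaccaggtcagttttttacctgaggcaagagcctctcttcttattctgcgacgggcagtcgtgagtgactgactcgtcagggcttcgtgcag
Sycp3: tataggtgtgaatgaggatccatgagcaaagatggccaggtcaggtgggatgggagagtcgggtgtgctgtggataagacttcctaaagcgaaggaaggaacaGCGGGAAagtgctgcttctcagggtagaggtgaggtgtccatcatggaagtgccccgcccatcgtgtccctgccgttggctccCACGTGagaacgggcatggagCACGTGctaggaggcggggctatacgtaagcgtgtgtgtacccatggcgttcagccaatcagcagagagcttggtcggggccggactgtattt
Sycp1: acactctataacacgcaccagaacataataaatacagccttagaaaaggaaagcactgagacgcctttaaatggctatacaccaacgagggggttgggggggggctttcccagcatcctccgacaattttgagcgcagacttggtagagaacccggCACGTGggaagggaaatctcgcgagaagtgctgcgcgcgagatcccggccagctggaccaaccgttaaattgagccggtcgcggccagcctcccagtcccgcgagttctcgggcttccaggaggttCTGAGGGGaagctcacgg
Hfm1: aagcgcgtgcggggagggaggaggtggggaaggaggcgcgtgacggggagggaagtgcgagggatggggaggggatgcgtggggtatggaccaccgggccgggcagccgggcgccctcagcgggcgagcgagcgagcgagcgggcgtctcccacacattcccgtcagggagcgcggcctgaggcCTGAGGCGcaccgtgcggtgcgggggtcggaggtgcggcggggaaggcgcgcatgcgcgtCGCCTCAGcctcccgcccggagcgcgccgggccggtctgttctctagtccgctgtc
Meioc: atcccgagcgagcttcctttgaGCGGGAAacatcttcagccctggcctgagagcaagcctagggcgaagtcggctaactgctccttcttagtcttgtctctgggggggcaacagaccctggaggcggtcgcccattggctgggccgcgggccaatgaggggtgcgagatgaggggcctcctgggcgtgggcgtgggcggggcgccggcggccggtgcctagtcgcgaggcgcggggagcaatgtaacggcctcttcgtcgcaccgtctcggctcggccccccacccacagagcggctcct
The windows lie at chr6:34920698-34920997 (plus strand) for Stra8, chr10:88459337-88459636 (plus) for Sycp3, chr3:102936051-102936350 (minus) for Sycp1, chr5:106925841-106926140 (minus) for Hfm1 and chr11:102665335-102665634 (plus) for Meioc. In Sycp3, CACGTG occurred at positions -64 and -43 from the start, counting its first base upstream as -1, and the reverse complement of TTCCCGC at -147. In Sycp1, CACGTG lay at -94 and the reverse complement of CNCCTCAG at 33 after the start. The Hfm1 window held CNCCTCAG at -6 and its reverse complement at -66. The Meioc window held the reverse complement of TTCCCGC at -228. None of the motifs occurred in the windows of Stra8 and Rec8.

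Pluripotency genes fell in the female germ cells. Of 19 tested, 14 were lower and 1 higher, with a median of -1.18. The single higher call, Klf4 (4.71 and 4.84 RPM, then 7.74 and 13.2 RPM), did not hold after median-ratio or quantile scaling, nor without female replicate 2 or without either E11.5 replicate. Pou5f1, encoding OCT4, fell from 745 and 752 RPM to 386 and 364 RPM (-0.996 ± 0.09 SE, adjusted p = 4.31e-10). Nanog fell from 156 and 128 RPM to 56.2 and 49.1 RPM, and Utf1, a chromatin factor of stem cells, from 995 and 966 RPM to 385 and 367 RPM. Sox2 fell less, from 277 and 275 RPM to 191 and 214 RPM. Sall4 (312 and 326 RPM, then 301 and 317 RPM) and Lin28a (37.0 and 25.9 RPM, then 33.9 and 49.3 RPM) did not pass. Tdgf1, the NODAL co-receptor also called Cripto, was at 19.5 and 20.5 RPM at E11.5 and at 0 and 0 RPM in females, which is at least 27.6-fold lower against the floor of 3 reads.

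Genes that define earlier germ cells moved the same way, with 10 of 15 tested lower, 1 higher and a median of -0.64. Ifitm3, an interferon-induced membrane protein of early germ cells, fell from 495 and 512 RPM to 131 and 149 RPM (-1.84, adjusted p = 3.11e-14). Prdm14, a specification factor, fell from 81.5 and 60.9 RPM to 41.2 and 36.7 RPM, and Nanos3, an RNA-binding protein, from 22.9 and 22.2 RPM to 11.92 and 8.497 RPM. Prdm1, the subject of the series and a repressor required for germ cell specification, was at 66.7 and 57.2 RPM and then 48.5 and 48.2 RPM, and did not pass (-0.35, adjusted p = 0.0662). Dppa3 fell from 3145 and 3227 RPM to 2567 and 2390 RPM, whereas the males held 6401 and 6164 RPM. In these embryos Dppa3 is the locus that carries the fluorescent reporter, and whether cells were gated on it is not stated. The part of sorting in its level was not tested. The Dppa3 call was lost without the mean-variance trend (adjusted p = 0.0604).

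Genes of the piRNA pathway, which silences transposons in germ cells, rose. Of 18 tested, 15 were higher and 3 not called, with a median of 1.89. Mael, a piRNA factor, rose 8.11-fold from 45.8 and 53.5 RPM to 400 and 405 RPM, Tdrd7, a Tudor protein of germ granules, from 1.35 and 3.99 RPM to 65.0 and 64.4 RPM, and Tdrd1 from 4.04 and 2.85 RPM to 34.1 and 29.1 RPM. Most of these genes were not called different from males. In that comparison 3 of the 18 were called higher in females than in males and 1 lower, namely Tdrd5, at 41.8 and 58.1 RPM in females and 127 and 120 RPM in males. Genes that act later in the oocyte were mostly absent. Of 17 oocyte genes in the table, 11 stayed under the filter, and Gdf9, Bmp15 and Zp2, which encode oocyte growth factors and an egg coat protein, did not exceed 0.418 RPM. Figla, a factor of primordial follicle formation, rose from 2.02 and 1.42 RPM to 7.94 and 6.30 RPM, and Sohlh2, a basic helix-loop-helix factor, from 48.5 and 56.7 RPM to 204 and 204 RPM. Without female replicate 1 the number of oocyte genes called higher was 3 in place of 5, as it was after quantile scaling.

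**Figure D3:**
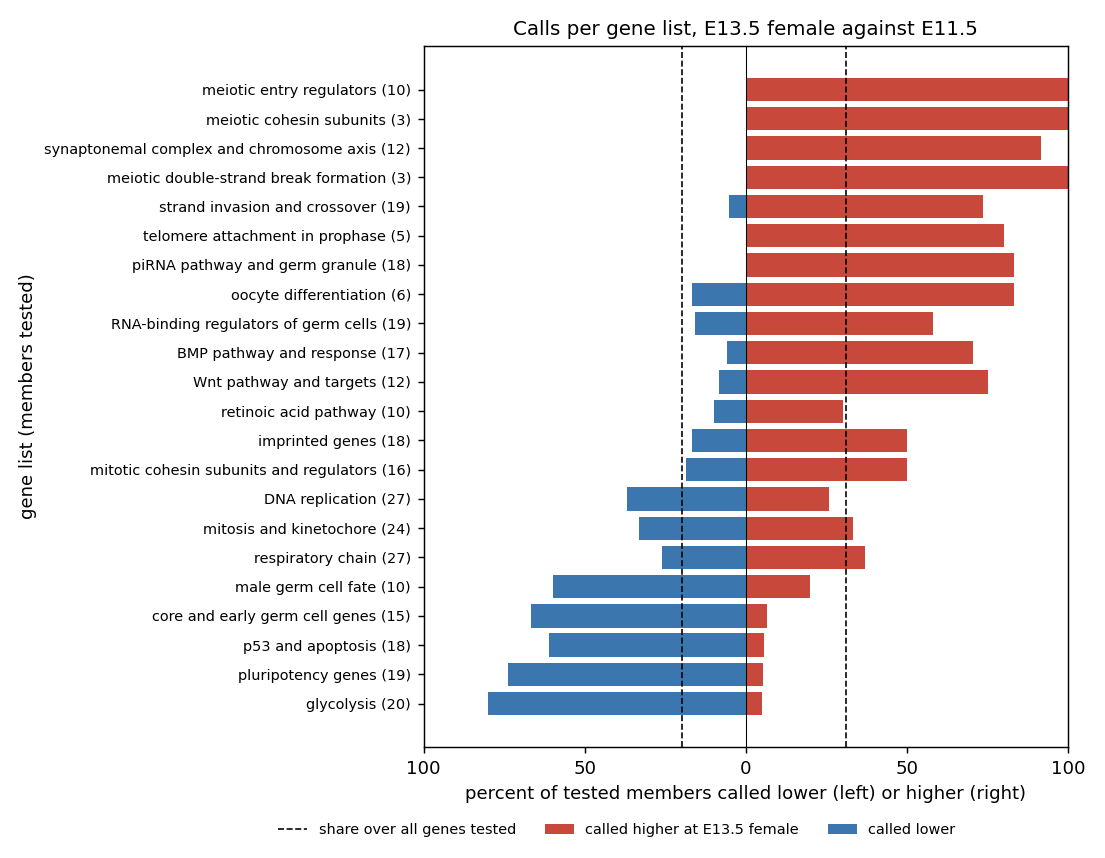
Percent of tested members of each gene list called higher (right, red) or lower (left, blue) in E13.5 female against E11.5 libraries. Dashed lines give the shares over all genes tested, 31.2% higher and 20.0% lower, and the meiotic and piRNA lists extend far to the right while the pluripotency and glycolysis lists extend to the left.

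Of the signalling pathways that act on germ cells in the gonad, genes of the BMP pathway and response mostly rose in females. BMP ligands act through receptors and SMAD proteins on targets such as the Id genes. Of 17 genes tested, 12 were higher and 1 lower, with a median of 0.86. Among receptors, Bmpr1a rose from 62.6 and 44.7 RPM to 140 and 150 RPM (1.43, adjusted p = 1.31e-08) and Acvr1 from 16.8 and 13.7 RPM to 37.6 and 35.9 RPM. Smad5 rose from 26.9 and 22.8 RPM to 51.0 and 58.7 RPM, while Smad1 fell from 10.8 and 8.26 RPM to 4.18 and 1.92 RPM. The Smad1 call was lost without female replicate 2. Among targets, Id1, an inhibitor of basic helix-loop-helix factors, rose from 41.8 and 21.9 RPM to 210 and 191 RPM, and Id4 from 4.04 and 8.26 RPM to 39.7 and 43.6 RPM. Gata2, a zinc finger transcription factor, rose 9.72-fold from 28.3 and 29.9 RPM to 288 and 277 RPM.

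Several of these targets were lower in males. Id1 stood at 6.35 and 5.28 RPM in male libraries and Gata2 at 3.67 and 1.41 RPM, and female exceeded male libraries by 4.89 and 6.40 on the log2 scale. Id4, at 25.0 and 24.7 RPM in males, was not called different between the sexes (0.72, adjusted p = 0.0643). Id3 rose from 226 and 235 RPM at E11.5 to 288 and 283 RPM in females (0.31, adjusted p = 0.0209), and males held 50.4 and 47.5 RPM. Msx2, a homeobox gene of the BMP response, was at 50.5 and 48.1 RPM at E11.5, 89.3 and 84.7 RPM in females and 1.34 and 0.704 RPM in males. Its rise from E11.5 was lost without female replicate 1 (adjusted p = 0.0556). In the comparison of the sexes, 11 of the 17 genes were higher in females and 6 not called.

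Retinoic acid genes were called about as often as genes in general. Of 10 tested, 3 were higher and 1 lower. Rxra, a retinoid receptor, rose from 6.06 and 5.12 RPM to 28.0 and 23.6 RPM, Crabp2, a retinoic acid carrier, from 8.08 and 7.12 RPM to 21.95 and 26.0 RPM, and Rdh10, which makes retinal, from 2.69 and 7.69 RPM to 22.2 and 23.6 RPM. Cyp26b1, the enzyme that destroys retinoic acid in the testis and is known from somatic cells, did not exceed 1.64 RPM in these 4 libraries. Crabp1, another retinoic acid carrier, was at 63.3 and 61.8 RPM at E11.5 and 80.3 and 66.3 RPM in females, which did not pass (adjusted p = 0.335), and at 11.7 and 10.6 RPM in males. Wnt genes and targets rose, with 9 of 12 tested higher and 1 lower. Sp5, a Wnt target, rose from 1.35 and 0.854 RPM to 52.9 and 55.6 RPM, with 35.4 and 38.0 RPM in males. Axin2, the feedback inhibitor of the pathway, rose from 10.8 and 5.41 RPM to 16.9 and 30.4 RPM. Lgr4, a receptor of R-spondins, fell from 148 and 148 RPM to 72.3 and 67.7 RPM.

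Genes of the Nodal pathway and of the male germ cell fate were low in females. Lefty2, a secreted NODAL antagonist and target, was at 83.5 and 68.6 RPM at E11.5 and at 0.627 and 0.548 RPM in females, the largest fall of the named genes (-5.59 ± 0.24 SE, adjusted p = 1.24e-16). Lefty1 went from 46.5 and 43.3 RPM to 0.836 and 1.10 RPM, and the males held 304 and 316 RPM. Nodal fell from 13.47 and 19.08 RPM to 4.81 and 7.13 RPM, with 28.4 and 29.2 RPM in males. Nanos2, the determinant of male germ cell fate, was at 0 in both E11.5 libraries, at 0.209 and 0 RPM in females and at 37.1 and 41.9 RPM in males. Of 10 tested genes of the male list, 6 were lower and 2 higher than at E11.5, and 7 were lower than in males. Their medians were -1.25 against E11.5 and -3.15 against males. Over all genes tested, 20.0% were lower and 31.2% higher than at E11.5, and 16.4% were lower than in males. Nanos2, at or near 0 at E11.5 and in females, passed the filter only through other libraries, so its lower level than in males was largely fixed in advance. The part of such members in these counts and medians was not tested. Piwil4 and Tdrd9, which also belong to the piRNA list, were the 2 that rose.

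**Figure D4:**
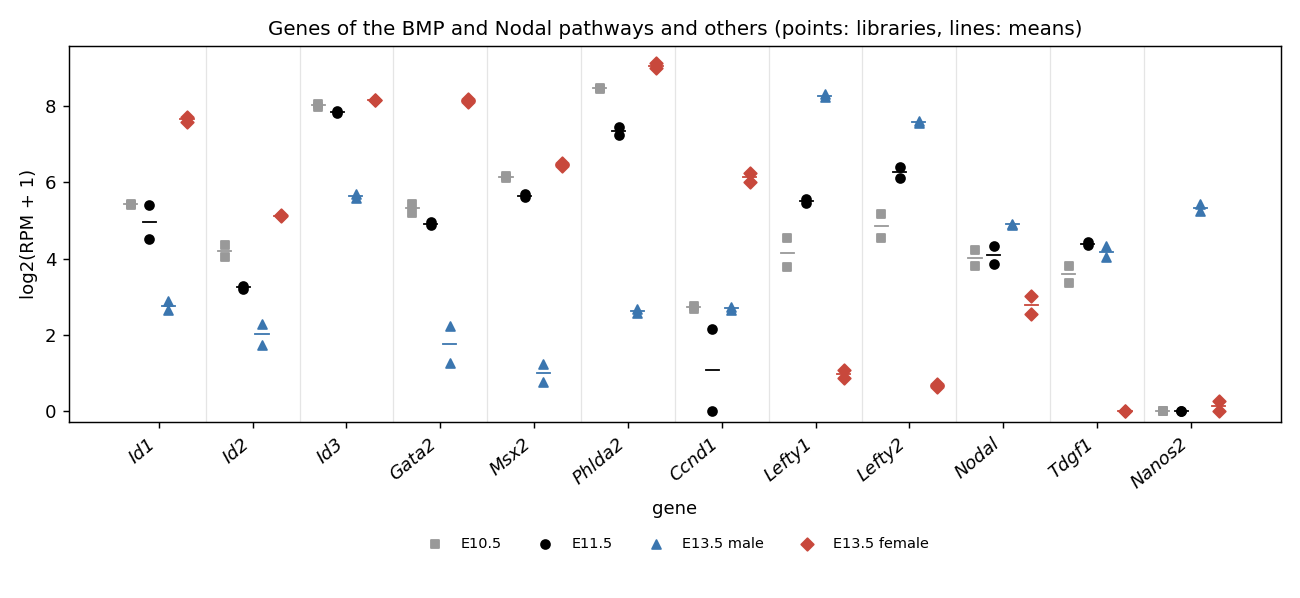
Levels of 12 genes as log2(RPM + 1) in each of the 8 wild-type libraries (points) with group means (lines). Id1, Id2, Gata2, Msx2, Phlda2 and Ccnd1 are highest in females, and Lefty1, Lefty2, Nodal and Nanos2 are highest in males and lie near 0 in females except for Nodal.

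The 12 genes with the largest rises, under the limits on level and gene symbol given with the methods, had log2 differences from 4.37 to 8.67. They included Stra8, Meioc and Sycp1 of the meiotic lists and Sp5 and Ccnd1 of the Wnt list. Taf7l, an X-linked TFIID subunit of germ cells, rose from 0.673 and 0 RPM to 44.3 and 55.9 RPM. Cited1, an X-linked transcriptional coactivator, rose from 1.35 and 0.569 RPM to 70.9 and 66.6 RPM (5.18, adjusted p = 2.05e-11). Ccnd1, encoding cyclin D1, rose from 0 and 3.42 RPM to 64.0 and 74.8 RPM, with 5.68 and 5.28 RPM in males. Fut4, a fucosyltransferase able to make the SSEA-1 epitope, was at 0 in both E11.5 libraries and at 25.9 and 36.2 RPM in females, at least 21.6-fold higher. Mxd4, a MAX partner that opposes MYC, rose from 2.02 and 0 RPM to 52.1 and 47.4 RPM. Pnck, Rhbdl3 and Lonrf2, which encode a kinase, a rhomboid-like protein and a LON-domain protein, completed the group. Of the 12, 11 were also higher than in males, where 21.2% of all genes tested were, and Sp5 was not called different (adjusted p = 0.284). The 12 were picked by their high level in the same female libraries, so that count largely follows from the choice and adds no support.

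The 12 largest falls, picked under the same limits, ran from -5.59 to -3.02. They included the Lefty genes and Tdgf1. Nr0b1, encoding DAX1, a nuclear receptor also active in pluripotent cells, fell from 27.6 and 36.4 RPM to 1.88 and 1.92 RPM. Nr0b1 was a member of the Sertoli marker list and made up most of the fall in that sum, while the defining gene Sox9 was at 0 and 1.42 RPM and then at 0. Slc6a6, the taurine transporter, fell from 59.3 and 66.3 RPM to 6.90 and 6.85 RPM, with 42.7 and 37.3 RPM in males. Lck, a SRC-family kinase, fell from 57.2 and 48.1 RPM to 2.72 and 4.39 RPM, and was at 2.004 and 1.41 RPM in males, not called different from females (adjusted p = 0.0612). Stat4, a signal-dependent transcription factor, and Ildr1 were likewise not called different between the sexes. Gng3, Gtsf1l and Msc were also among them. Of the 12, 9 were lower than in males, where 16.4% of all genes tested were. As with the rises, the falls were picked by their level in the same female libraries, so that count adds no support.

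Between the sexes, the genes most higher in females and called in both comparisons were Stra8, Phlda2, Gata2, Sct and Msx2. Phlda2, an imprinted growth regulator, was at 150 and 176 RPM at E11.5, 558 and 508 RPM in females and 5.34 and 4.93 RPM in males, a female excess of 6.44 ± 0.13 (SE) on the log2 scale (adjusted p = 3.8e-25). Sct, encoding the hormone secretin, was at 12.1 and 10.8 RPM, 68.2 and 61.4 RPM, and 0.334 and 0 RPM in the same order. The genes most lower in females included Lefty1, Lefty2, Cthrc1 and Ly6g6e. Cthrc1, a secreted collagen-repeat protein, was at 66.5 and 56.0 RPM in males and at 0.836 and 1.92 RPM in females. The falls of Cthrc1 and Ly6g6e from E11.5 rested on levels of 4.27 RPM or less. Each call was lost with no filter, with a pseudocount of 10 and when female replicate 1 was left out. That of Ly6g6e was also lost with limma voom, without female replicate 2 and without E11.5 replicate 1.

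Glycolysis genes fell in the female germ cells. Of 20 tested, 16 were lower and 1 higher, with a median of -1.11, and their summed level went from 7387 and 7475 RPM to 3485 and 3396 RPM. Eno1, an enolase, fell from 719 and 705 RPM to 214 and 224 RPM (-1.70 ± 0.09 SE, adjusted p = 1.47e-14), and Gapdh from 2284 and 2533 RPM to 1016 and 922 RPM. Hk1, the first enzyme of the pathway, fell from 67.3 and 65.5 RPM to 13.6 and 12.9 RPM. In males the sum was 5112 and 4812 RPM, and Gapdh was at 1419 and 1246 RPM. The lactate dehydrogenase genes were ordered in opposite ways in the sexes. Ldha was at 103 and 99.6 RPM at E11.5, 86.6 and 81.1 RPM in females and 16.4 and 17.3 RPM in males, and Ldhb at 43.1 and 47.5 RPM, 27.4 and 35.4 RPM, and 109 and 114 RPM. Genes of the respiratory chain were called in both directions. Of 27 tested, 10 were higher and 7 lower, the median was 0.07, and the sum was 13318 and 13381 RPM at E11.5 and 13097 and 13154 RPM in females. The balance of those calls turned with the scaling, to 8 higher and 9 lower with median-ratio scaling and 11 and 4 with quantile scaling, and 4 were lower without female replicate 1.

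Cell cycle genes were called in both directions. For 24 genes of mitosis and the kinetochore, 8 were higher and 8 lower with a median of -0.04, and their sum was 5025 and 4843 RPM at E11.5 and 4933 and 4937 RPM in females. Ccnb1, encoding cyclin B1, fell from 460 and 460 RPM to 333 and 360 RPM, while Ccnb2 rose from 319 and 325 RPM to 552 and 526 RPM. Aurkb, a mitotic kinase, fell from 135 and 150 RPM to 63.3 and 54.5 RPM, and the proliferation marker Mki67 did not pass (163 and 129 RPM, then 140 and 151 RPM). For 27 DNA replication genes, 7 were higher and 10 lower, with a median of -0.18. With median-ratio scaling these were 3 and 13, and with quantile scaling 5 and 11. Without female replicate 2, 3 replication genes were higher, and without female replicate 1, 5 mitosis genes were. Rpa2, which coats single-stranded DNA, rose from 254 and 274 RPM to 518 and 526 RPM, and Mcm10, a replication factor, fell from 141 and 160 RPM to 73.4 and 81.4 RPM. Of 12 tested G1 cyclins, their kinases and inhibitors, 4 were higher and 3 lower. Cdk4, the kinase partner of D cyclins, fell from 902 and 810 RPM to 273 and 265 RPM (-1.66, adjusted p = 1.08e-14), against 698 and 668 RPM in males. Cdkn1c, an imprinted inhibitor of cyclin-dependent kinases, rose from 8.76 and 13.1 RPM to 54.1 and 68.0 RPM.

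Genes of p53 signalling and apoptosis were mostly lower, with 11 of 18 tested lower, 1 higher and a median of -0.64. Trp53 itself fell from 229 and 264 RPM to 79.4 and 75.7 RPM (-1.65 ± 0.12 SE, adjusted p = 4.14e-12), with 107 and 113 RPM in males. Gadd45a, a stress-response gene, fell from 65.3 and 52.7 RPM to 23.4 and 22.5 RPM, and Bax, a cell death effector, from 72.7 and 78.9 RPM to 39.7 and 52.6 RPM. Mdm2, the p53 inhibitor, did not pass (119 and 108 RPM, then 124 and 155 RPM). The number lower was 7 without female replicate 1 and 7 without E11.5 replicate 1.

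X-linked genes stood higher in the female libraries as a set. They took 3.62% and 3.66% of gene RPM at E11.5, 4.83% and 4.84% in E13.5 females and 3.09% and 2.95% in E13.5 males. Of 408 X-linked genes tested, 212 were higher and 48 lower than at E11.5, with a median of 0.63 against 0.12 for 9991 autosomal genes. Medians of single autosomes ran from -0.03 (chromosome 7) to 0.25 (chromosome 3). After median-ratio scaling the counts were 193 and 57, and after quantile scaling 193 and 63. Against males, 224 were higher and 19 lower, with a median of 0.69. Xist, the RNA that coats an inactive X chromosome, was at 1.35 and 1.42 RPM at E11.5 and at 0 and 0.548 RPM in females. As the sex of the E11.5 embryos is not given, the number of X chromosomes and the stage cannot be told apart in the comparison with E11.5.

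**Figure D5:**
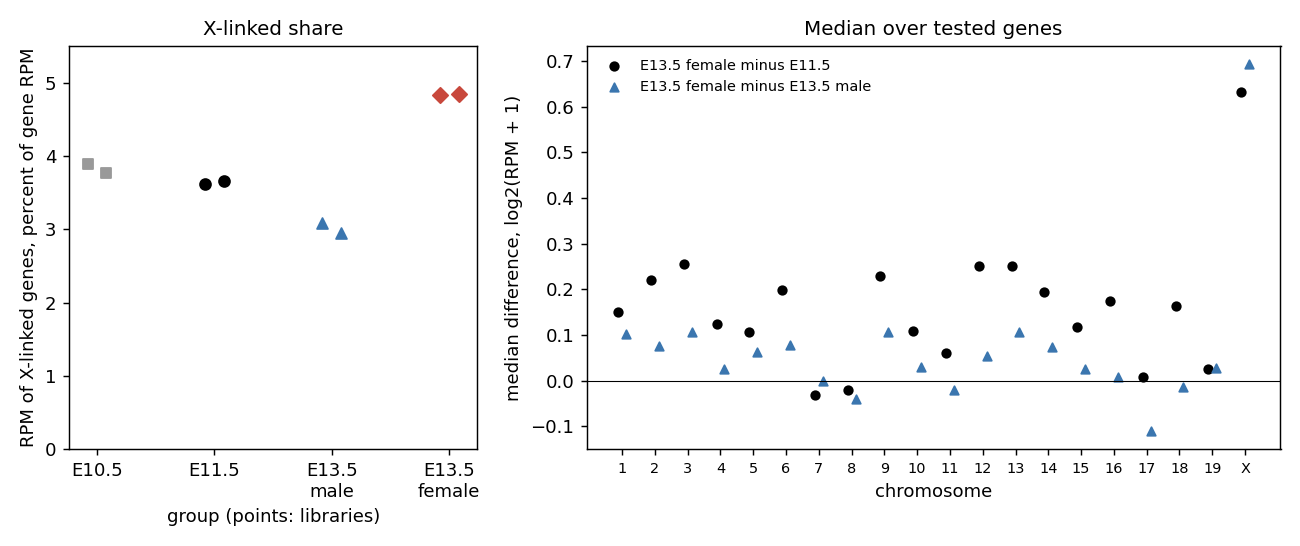
Left, share of gene RPM taken by X-linked genes in each library, in percent, with female libraries at 4.83% and 4.84%. Right, median log2 difference of the tested genes of each chromosome for E13.5 female minus E11.5 (circles) and E13.5 female minus male (triangles), in which the X chromosome lies above every autosome.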

How the data were processed

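Values were deposited in RPM by the authors, in a table of 26219 genes and 92 ERCC spike-in rows, scaled to the same total in each library. Per the submitters' processing notes, cutadapt 1.3, TopHat 1.4.1, Cufflinks 2.2.0 and mm10 were used. The counting rule and gene annotation are not given in the sources used here. Depths were taken from the smallest step in each library. Between 99.67% and 99.77% of values lay within 0.05 reads of a whole number of such steps, and as 35 to 49 genes per library did not, values were analysed as RPM.

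ERCC rows were left out. Genes with at least 5 RPM in 2 of 8 wild-type libraries were tested as log2(RPM + 1), a scale that understates changes of low genes, with limma 3.58.1 (lmFit, eBayes with a trend) in R 4.3.3. All 4 groups shared the spread, without a replicate block. P-values were adjusted over all genes tested, and a gene was called at 0.05. The method was tested on simulated data. RefSeq (GRCm38.p6) gave positions for 24619 of 26219 identifiers.

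Named genes are Stra8, Rec8 and Sycp3, the 12 largest rises and falls (called, groups not overlapping, mean over the 4 libraries of 10 RPM or more), up to 4 members per list with the smallest p, and 5 genes in each direction between the sexes. Predicted and unnamed genes, with symbols such as Gm or Rik, were skipped among the rises, the falls and the genes picked between the sexes, unless they were in a list. Other list members are given by value. The members, the 33 lists and the tests were chosen with earlier results of these data known. A few genes of these lists are counted but not reported by name here. Alternatives were pseudocounts of 0.1 and 10, no filter and 20 RPM, median-ratio and quantile scaling, no trend, array weights, only the compared groups, a 2-fold threshold, a replicate block, each replicate left out, and limma voom on recovered reads, the last added after the data were seen.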

Additional observations from a re-analysis of the deposited data

Results flagged for a closer look

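In 14 named genes the change from E11.5 was called in opposite directions in E13.5 females and males, and the difference between those changes was itself called (limma, adjusted p under 0.05 over all genes). Opposite calls against the same E11.5 libraries make that further call likely, so it adds no support. Up to 5 genes in each direction, Phlda2 and Lefty1 among them, were named for their difference between the sexes. How many genes of the whole table show such opposite calls was not counted. Among 135 named genes tested, 99 were called different between females and males at E13.5, against 37.6% of all genes tested. The named genes were picked for large changes or small p, and some for this very difference, so their count reflects the naming rule. Values of 13 of the 14 are given here. Higher in females and lower in males than at E11.5 were Phlda2 (female minus male 6.44 on the log2 scale), Gata2 (6.40), Sct (5.83), Msx2 (5.46), Id1 (4.89) and Hbb-y (3.40). Hbb-y, an embryonic globin of red cells, was at 5.39 and 2.28 RPM at E11.5, 12.5 and 17.5 RPM in females and 0.668 and 0.352 RPM in males, and at E10.5 it stood at 105 and 96.4 RPM. Lower in females and higher in males were Lefty1 (-7.31), Lefty2 (-6.91), Cthrc1 (-4.74), Ly6g6e (-4.26), Lhx1 (-2.81), Dppa3 (-1.34) and Dppa4 (-1.02). The falls of Cthrc1 and Ly6g6e in females rested on low levels and were lost in several settings, and Dppa3 is the locus that carries the reporter. Lhx1, a homeobox gene from the mesonephric list, was at 22.9 and 24.8 RPM at E11.5, 12.8 and 8.497 RPM in females and 77.1 and 80.6 RPM in males. Dppa4, a chromatin factor of germ and pluripotent cells, was at 368 and 381 RPM, 238 and 241 RPM, and 515 and 462 RPM in the same order.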

How the results depend on the processing

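With a 2-fold threshold the counts were 1708 higher and 884 lower against E11.5, and 1184 higher and 660 lower against males. Leaving out 1 replicate at a time gave 2411 to 3111 higher and 1622 to 1910 lower against E11.5, and 1459 to 1710 higher and 1182 to 1305 lower against males, where 1507 were higher without E13.5 female replicate 1 and 1459 without replicate 2. A fit with fewer libraries has less power by construction. Every other setting stayed within 1.5 times of each of these 4 counts. The replicate block gave 3408 and 2155 against E11.5 and 2324 and 1775 against males. Same-numbered libraries did not deviate together across all genes (correlations from -0.03 to 0.03). Such a check cannot exclude a shared litter, day or batch, and whether the numbers pair the samples is not known. Of 126 named genes called, 93 kept their call and direction in each of the 16 settings in which they were tested. A gene under the 20 RPM filter, such as Rspo1, was not tested in that setting and could still count as kept. The call was lost in at least 1 setting for 33, of which 27 missed the 2-fold threshold, and none reversed. At 1484856 reads, E11.5 replicate 1 has the highest floor (2.02 RPM), so a level under it cannot be told from 0 in that library.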

Other observations

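Genes beside Lefty1 and Lefty2 on chromosome 1 (GRCm38), a region picked after its values were seen, were also lower in females than at E11.5. Of 6 other genes within 100 kb, 4 were tested and 4 were lower, too few to set against a share of all genes. Tmem63a, an ion channel gene, went from 12.2 ± 2.75 to 1.21 ± 0.23 RPM (SD, n = 2 each) and stood at 30.8 RPM in males. H3f3a, a histone gene, went from 1093 ± 38.2 to 700 ± 15.3 RPM, and its male mean was 766 RPM. Around Phlda2 on chromosome 7, also picked after its values were seen, Cdkn1c, Slc22a18 and Phlda2 were higher in females and Nap1l4 and Cars were not called. Slc22a18 stood at 8.79 RPM at E11.5, 40.8 RPM in females and 0.176 RPM in males.

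Of 19 genes in a list of RNA-binding and other regulators of germ cells, which also holds members of other lists such as Dazl and Mael, 11 were higher and 3 lower than at E11.5, with a median of 0.81. Among 18 imprinted genes tested, 9 were higher and 3 lower than at E11.5. Igf2, a growth factor gene, was at 28.3 and 25.9 RPM at E11.5, 80.9 and 75.1 RPM in females and 4.34 and 2.82 RPM in males, and Gnas rose from 89.6 and 92.0 RPM to 192 and 224 RPM. The lower call of Snrpn is uncertain, since its E11.5 values were 0.0297 and 21.6 RPM, fractions of a read in 1 of them. The number lower was 1 without female replicate 1, female replicate 2 or E11.5 replicate 1. Chromatin genes showed no common direction. Among 19 Polycomb and PRC1.6 genes 9 were higher and 5 lower, with Bmi1 rising from 20.2 and 23.1 RPM to 69.2 and 91.3 RPM and Max, a subunit of PRC1.6, falling from 100 and 112 RPM to 56.9 and 71.3 RPM. Of 14 DNA methylation genes 3 were higher and 3 lower, where 31.2% and 20.0% of all genes tested were. With median-ratio scaling these were 2 and 4, and with quantile scaling 2 and 5, so the even split depends on the scaling. Hells, a remodeller needed for DNA methylation, rose from 126 and 108 RPM to 388 and 419 RPM, and Dnmt1, the maintenance methyltransferase, did not pass (236 and 211 RPM, then 262 and 240 RPM).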
